A study of Homo sapiens with 12 samples.

Results

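Acetylation of histone H3 at lysine 9 (H3K9ac) was examined at 40 genes of DNA replication and mitosis in MOLM-13 cells. The genes were listed by name for their roles and not picked by their H3K9ac values, though earlier results of these data were known. Each gene was represented by 1 region of the deposited H3K9ac table, the one with the highest mean over the 6 libraries among regions within 1 kb of either annotated gene end. A region was found for 39 of the 40 genes, out of 12344 coding genes with such a region and 47648 regions in all. No region lay within 1 kb of either end of ORC1, so ORC1 is described separately.

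MOLM-13 is an established human acute myeloid leukaemia line with a KMT2A-MLLT3 gene fusion and an activating FLT3 duplication. In the study the line received 4 µM WM-1119, an inhibitor of the histone acetyltransferase KAT6A, for 4 days, and control cells received DMSO. There were 3 H3K9ac libraries of WM-1119-treated cells and 3 of DMSO-treated cells, all from the same line. The labels do not say whether the 3 libraries of a group came from separate cultures, so the p-values measure the spread between these libraries, which may be technical.

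Cells copy their genome only once per division because the replicative helicase, a ring of MCM2 to MCM7, is loaded onto origins before S phase and started only within it. Loading needs the origin recognition complex with CDC6 and CDT1. Firing adds CDC45 and the GINS complex, after which the polymerases, the sliding clamp PCNA and its loader RFC copy the strands. E2F factors drive transcription of most of these genes at the G1 to S transition, while many mitotic genes are transcribed later, through CHR and CCAAT elements bound by the MuvB complexes and NF-Y. H3K9ac is a mark of active promoters, and replication genes are typically strongly acetylated in dividing leukaemia cells.

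The start-site sequences of 6 genes are shown, 3 with E2F words (MCM6, MCM7 and E2F1), 2 with CHR words (MKI67 and CCNB2) and RRM2, the gene with the smallest p, which has repeated CCAAT. They are RefSeq promoter windows of GRCh38.p14, from 250 bases before to 50 bases after an annotated start, read 5′ to 3′ on the gene's strand, and all 6 lie inside the H3K9ac region of their gene. Capitals mark E2F words (TTTCCCGC, TTTCGCGC, TTTGCCGC or TTTGGCGC), the CHR word TTTGAA and CCAAT, on either strand, so that CCAAT may read ATTGG. MCM6 (chr2:135876394-135876693, minus strand) and MCM7 (chr7:100101348-100101647, minus strand) encode helicase subunits. RRM2 (chr2:10122489-10122788, plus strand) encodes a subunit of ribonucleotide reductase, and E2F1 (chr20:33686336-33686635, minus strand) an E2F factor. MKI67 (chr10:128126374-128126673, minus strand) encodes the chromosome-surface protein Ki-67, and CCNB2 (chr15:59104896-59105195, plus strand) a mitotic cyclin.
MCM6: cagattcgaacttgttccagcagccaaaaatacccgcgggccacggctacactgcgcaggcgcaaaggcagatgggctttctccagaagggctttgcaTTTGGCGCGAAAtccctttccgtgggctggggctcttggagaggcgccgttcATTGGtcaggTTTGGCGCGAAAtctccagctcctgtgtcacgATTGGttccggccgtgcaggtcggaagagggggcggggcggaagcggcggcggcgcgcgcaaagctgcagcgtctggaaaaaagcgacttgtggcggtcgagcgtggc
MCM7: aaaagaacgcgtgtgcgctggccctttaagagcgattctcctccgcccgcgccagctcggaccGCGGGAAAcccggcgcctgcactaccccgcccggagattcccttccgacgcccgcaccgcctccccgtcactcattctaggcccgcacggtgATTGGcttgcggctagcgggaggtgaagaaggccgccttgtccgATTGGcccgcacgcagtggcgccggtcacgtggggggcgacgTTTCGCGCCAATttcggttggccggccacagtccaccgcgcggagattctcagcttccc
RRM2: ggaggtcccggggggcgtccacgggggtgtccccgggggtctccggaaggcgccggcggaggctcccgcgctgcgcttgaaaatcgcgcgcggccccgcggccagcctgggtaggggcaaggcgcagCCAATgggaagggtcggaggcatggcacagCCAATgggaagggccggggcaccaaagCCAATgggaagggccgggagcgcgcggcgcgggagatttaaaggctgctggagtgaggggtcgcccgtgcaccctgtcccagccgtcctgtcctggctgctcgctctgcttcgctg
E2F1: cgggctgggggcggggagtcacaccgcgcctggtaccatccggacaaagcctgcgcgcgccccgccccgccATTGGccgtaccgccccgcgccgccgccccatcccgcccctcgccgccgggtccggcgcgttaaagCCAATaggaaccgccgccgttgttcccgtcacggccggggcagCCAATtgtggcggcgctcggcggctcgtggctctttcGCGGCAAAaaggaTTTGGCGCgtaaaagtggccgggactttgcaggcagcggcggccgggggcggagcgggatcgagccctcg
MKI67: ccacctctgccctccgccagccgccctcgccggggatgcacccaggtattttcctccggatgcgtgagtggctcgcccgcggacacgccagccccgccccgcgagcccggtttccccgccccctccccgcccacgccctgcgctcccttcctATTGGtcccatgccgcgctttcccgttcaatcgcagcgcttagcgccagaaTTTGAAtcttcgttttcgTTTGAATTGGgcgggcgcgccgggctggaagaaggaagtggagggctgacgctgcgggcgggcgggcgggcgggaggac
CCNB2: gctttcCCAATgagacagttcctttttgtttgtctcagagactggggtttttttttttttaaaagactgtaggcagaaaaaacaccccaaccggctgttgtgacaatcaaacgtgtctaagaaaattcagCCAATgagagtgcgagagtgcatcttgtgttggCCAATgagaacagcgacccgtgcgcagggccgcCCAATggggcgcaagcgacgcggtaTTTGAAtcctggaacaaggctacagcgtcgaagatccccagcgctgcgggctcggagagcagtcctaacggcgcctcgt

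The elements differed between the roles. Of 40 genes, 37 had a promoter entry, and MCM4, MCM5 and AURKA had none. An E2F word stood in a window of 17 of the 37 genes (45.9%), against 3.99% of 27305 genes in the RefSeq table and 7.86% of 6732 coding genes whose H3K9ac region covered the start and had a mean in the same range (the listed genes included). The 17 were 6 of 8 licensing genes, 7 of 13 fork genes, TYMS, both E2F genes and, among 11 mitosis genes, CDK1. In MCM6 each of the 2 marked stretches of TTTGGCGCGAAA is a TTTGGCGC that overlaps a TTTCGCGC on the other strand, ending 141 and 79 bases before the start.

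The CHR word stood in 8 of the 37 genes (21.6%), against 18.2% of the RefSeq table and 12.7% of the genes with a region of similar strength. It stood in 7 of 11 mitosis genes (BUB1B, CCNB2, CDC20, CDK1, MKI67, PLK1 and TOP2A) and otherwise in RRM1. CCAAT stood in 26 of 37 genes (70.3%), against 39.7% of the table and 42.7% of genes of similar strength, and in 10 of 11 mitosis genes. The GC box GGGCGG stood in 28 of 37 (75.7%), against 48.3% and 79.9%. CCAAT in MKI67 overlaps the second CHR word by 1 base, and a CCAAT in MCM7 overlaps an E2F word. A match describes letters in these windows and is not evidence of a bound factor.

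The deposited values were CPM, reads per region scaled so that each library sums to 1000000, and depth differed widely. Reads in regions numbered 4542322 to 12705349 in WM-1119 libraries and 719329, 1298443 and 7481097 in DMSO replicates 1, 2 and 3. DMSO replicates 1 and 2 stood apart: regions below the median strength took 2.19% to 3.35% of the CPM in the WM-1119 libraries, and 8.95%, 7.19% and 2.35% in DMSO replicates 1, 2 and 3. Their part in the results was not tested, and values without them are given. The labelled cell type was checked at marker genes: 9 of 10 myeloid leukaemia markers, SPI1, LYZ, MYB and HOXA9 among them, had a region of at least 10 CPM, whereas CD33 had 3.67 CPM. T cell, epithelial and fibroblast markers had no region above 4.83 CPM, CD79A reached 14.7 CPM among B cell markers and EPOR 60.0 CPM among erythroid markers.

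None of the 39 regions at the replication and mitosis genes changed past the threshold. The median over the 39 regions was 84.8, 92.5 and 92.0 CPM in WM-1119 libraries, against 66.7, 80.1 and 86.0 CPM in DMSO libraries. The DMSO 3 median lay among the WM-1119 medians, and DMSO 1 and DMSO 2 were lower. Other gene-end regions within the range of means of the 39 had medians of 76.8, 77.6 and 78.1 CPM in WM-1119 libraries. In DMSO libraries their medians were 63.9, 67.0 and 76.9 CPM, so DMSO 1 and DMSO 2 were lower there too. In limma's test with Benjamini-Hochberg adjustment over all regions, 0 of 39 regions passed an adjusted p of 0.05, against 27 of 44763 regions in all (0.0603%, each of them lower in WM-1119 cells) and 1 of 7120 other gene-end regions in the same range of means (0.014%). Adjusted p ranged from 0.339 to 0.993 and standard errors of the log2 changes from 0.14 to 0.24. At an unadjusted p under 0.05, 6 regions were higher (15.4%, against 12.9% of the gene-end regions in range and 2.58% of all regions) and 0 were lower (0.646% of the gene-end regions in range and 10.8% of all). edgeR and DESeq2, run on the reads recovered from 5 libraries, called 0 of 39, also at an unadjusted p under 0.05.

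**Figure D1:**
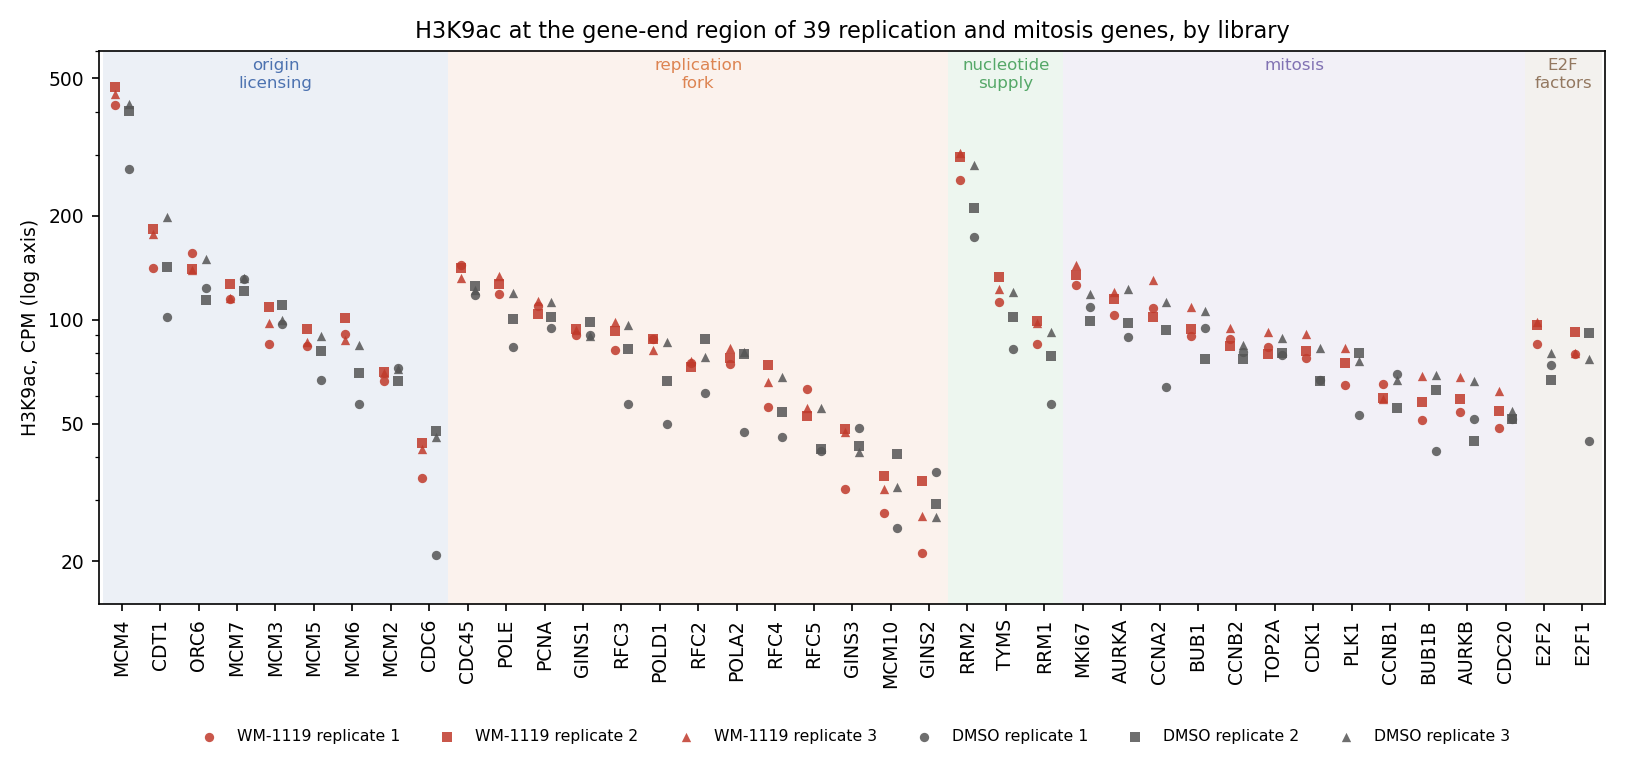
H3K9ac in CPM (log axis) at the region of each of 39 genes, by role and in falling order of the mean within a role; red marks stand for the 3 WM-1119 libraries, grey marks to their right for the 3 DMSO libraries, and the shape gives the replicate number. MCM4 and RRM2 lie above the other genes, and the grey circle of DMSO replicate 1 is the lowest mark for 24 genes.

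The log2 change, WM-1119 minus DMSO on log2(CPM + 1), was above 0 at 30 regions and below 0 at 9. The share above 0 was 76.9%, against 83.2% of the gene-end regions in the same range and 22.8% of all regions. The median change was 0.17, against 0.18 for the gene-end regions in range and -0.47 for all regions. These counts depend on the scaling and on DMSO 1 and 2. All 39 regions were above 0 with median centring of each library, with edgeR and with DESeq2, and 21 with quantile normalization. Gene-end regions in general moved too. Their median, 0.12 over all of them in the main fit, was 0.89, 0.49 and 0.56 with median centring, edgeR and DESeq2. With quantile normalization it was 0.08. Set against DMSO replicate 3 alone, 17 of 39 were above 0 and the median was -0.03. Without DMSO replicate 3, limma called 12 of the 39 higher, at adjusted p from 0.00707 to 0.0455 and 0 lower. By the same rule 5.28% of all regions were called higher and 38% lower, and 27.2% of gene-end regions in range higher. The 12 genes were RRM2, MCM6, POLD1, POLE, MCM4, CCNA2, TYMS, RRM1, MKI67, CDT1, E2F2 and RFC5. With array weights, which give libraries unequal weight, 22 were called higher and 2 lower. The shares over all regions were 14.2% and 64%, and 59.4% of gene-end regions in range were called higher.

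The 9 licensing genes with a region had a median change of 0.16, with 6 above 0 and 3 below. MCM4, a helicase subunit, had the strongest region of all 39, at chr8:47958977-47963201 (hg38, 4225 bp). It measured 418, 472 and 448 CPM in WM-1119 libraries and 272, 401 and 421 CPM in DMSO libraries. The WM-1119 values lay near DMSO 2 and DMSO 3, the groups overlapped, and DMSO 1 alone was far lower. The change was 0.31 ± 0.14 (standard error; limma adjusted p = 0.354), and against DMSO 3 alone it was 0.08. The region also lies at an end of PRKDC, which encodes a DNA repair kinase. Input libraries were not used, so the levels of this and all other regions are not corrected for DNA copy number.

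MCM6, another subunit of the ring, had the largest change of the 39. Its region (chr2:135875290-135876986) held 90.7, 101.2 and 87.4 CPM in WM-1119 libraries and 57.0, 70.1 and 84.6 CPM in DMSO libraries. Every WM-1119 library was above every DMSO library, by a narrow margin over DMSO 3. The change was 0.41 ± 0.18 (limma adjusted p = 0.353), or 0.13 against DMSO 3 alone.

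MCM7 had the lowest change among licensing genes. Its region (chr7:100099443-100102940) measured 115, 127 and 115 CPM in WM-1119 libraries and 131, 121 and 132 CPM in DMSO libraries. The groups overlapped, with DMSO 2 between the WM-1119 values. The change was -0.10 ± 0.16 (limma adjusted p = 0.694), and its sign turned with median centring (0.67), edgeR (0.26), DESeq2 (0.32) and array weights (3.1e-05). Of the other subunits, MCM5 (0.16) lay above 0, and MCM2 (-0.02) and MCM3 (-0.08) below it. CDC6, which helps load the ring, had the narrowest region (993 bp), with 34.8, 43.8 and 42.2 CPM in WM-1119 libraries and 20.9, 47.7 and 45.8 CPM in DMSO libraries. All WM-1119 libraries lay between DMSO 1 and the other DMSO libraries. The DMSO 1 value rested on 15 reads, with a 95% Poisson interval of 11.7 to 34.4 CPM for counting error alone. ORC6, of the origin recognition complex, had a change of 0.18.

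The 13 fork genes had a median change of 0.19, with 8 above 0 and 5 below. CDC45, which completes the active helicase, had the strongest region of them (chr22:19477674-19481334) and shares it with UFD1. It held 144, 141 and 132 CPM in WM-1119 libraries and 118, 126 and 122 CPM in DMSO libraries. All WM-1119 libraries were above all DMSO libraries. The change was 0.19 ± 0.16 (limma adjusted p = 0.498), the same size against DMSO 3 alone (0.19), but -0.03 with quantile normalization.

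POLD1, the catalytic subunit of polymerase delta, had the highest change of the fork genes. Its region (chr19:50383554-50385549) held 88.1, 87.6 and 81.9 CPM in WM-1119 libraries and 50.05, 66.2 and 86.0 CPM in DMSO libraries. DMSO 3 lay among the WM-1119 values and DMSO 1 and 2 were lower. The change was 0.38 ± 0.18 (limma adjusted p = 0.365), and against DMSO 3 alone it was -0.002. POLE, the catalytic subunit of polymerase epsilon, had a change of 0.33, and POLA2, a subunit of the polymerase alpha-primase, 0.22.

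The 3 GINS genes among the 39, whose products bind the helicase within 1 complex, were all below 0 here. They were above 0 with median centring, edgeR and DESeq2. GINS1 was at -0.003, GINS3 at -0.07 and GINS2 at -0.17. GINS4, of the same complex but listed among the other cell cycle genes, went the other way, at 0.24 ± 0.17 (limma adjusted p = 0.441). At GINS4 all WM-1119 libraries were above all DMSO libraries. GINS2 was the weakest region of the 39 (chr16:85687537-85689606), with 21.1, 34.2 and 27.0 CPM in WM-1119 libraries and 36.1, 29.3 and 26.9 CPM in DMSO libraries. The groups overlapped, and DMSO 1, the highest, rested on 26 reads. The change of -0.17 ± 0.24 (limma adjusted p = 0.658) was 0.004 against DMSO 3 alone, and its sign also turned with median centring, edgeR, DESeq2 and array weights. The clamp loader genes spread from -0.003 for RFC2 to 0.30 for RFC5, with RFC3 at 0.23 and RFC4 at 0.23. MCM10, which helps start the fork, was at -0.03.

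All 3 nucleotide supply genes had a change above 0 and above the median of regions of the same mean. RRM2 and RRM1 encode the subunits of ribonucleotide reductase, which makes deoxynucleotides. RRM2 had the widest region of the 39 (chr2:10119857-10125443, 5587 bp), with 253, 295 and 304 CPM in WM-1119 libraries and 174, 210.3 and 280.4 CPM in DMSO libraries. DMSO 3 lay among the WM-1119 values, with DMSO 1 and 2 below them all. The change of 0.38 ± 0.15 had the smallest p of the 39 genes (limma adjusted p = 0.339), and against DMSO 3 alone it was 0.01. The window printed above holds 3 CCAAT words, each followed by gggaaggg, and no E2F word.

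RRM1 had a change of 0.33, or 0.02 against DMSO 3 alone. TYMS, thymidylate synthase, held 113, 133 and 122 CPM in WM-1119 libraries (chr18:657101-659559) and 82.0, 102 and 119.9 CPM in DMSO libraries. DMSO 3 was within the range of the WM-1119 libraries, and DMSO 1 and 2 were below it. The change was 0.29 ± 0.17 (limma adjusted p = 0.395), or 0.03 against DMSO 3 alone.

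Of the 12 mitosis genes, 11 had a change above 0, with a median of 0.12. MKI67, whose product coats mitotic chromosomes and marks dividing cells, had the strongest region of them (chr10:128123311-128127313). It held 126, 135 and 144 CPM in WM-1119 libraries and 108, 99.3 and 119 CPM in DMSO libraries. The groups did not overlap. The change was 0.31 ± 0.16 (limma adjusted p = 0.378), or 0.18 against DMSO 3 alone.

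CCNA2, the cyclin of S phase and mitotic entry, had the highest change of the mitosis genes. Its region (chr4:121821570-121824645) held 108, 102 and 130.0 CPM in WM-1119 libraries and 63.9, 93.2 and 112 CPM in DMSO libraries. DMSO 3 lay among the WM-1119 values. The change was 0.36 ± 0.18 (limma adjusted p = 0.365), or 0.01 against DMSO 3 alone.

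CCNB1, the main mitotic cyclin, was the mitosis gene with a change below 0. Its region (chr5:69166522-69168774) held 64.9, 59.4 and 59.0 CPM in WM-1119 libraries and 69.5, 55.5 and 66.8 CPM in DMSO libraries. DMSO 2 was the lowest library and DMSO 1 the highest. The change was -0.06 ± 0.19 (limma adjusted p = 0.849), and it was 0.004 without DMSO 1 and above 0 with median centring, edgeR, DESeq2 and array weights. CCNB2 had a change of 0.13 and the shared kinase partner CDK1 0.21. The mitotic kinases AURKA, AURKB and PLK1 were at 0.14, 0.17 and 0.10, the checkpoint genes BUB1 and BUB1B at 0.08 and 0.06, and CDC20, the activator of the anaphase-promoting complex, at 0.06. TOP2A, which untangles sister chromatids, was at 0.04.

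The E2F genes encode activators of the licensing and fork genes. E2F2 (chr1:23529032-23531951) held 85.2, 96.6 and 98.1 CPM in WM-1119 libraries and 73.7, 67.0 and 79.9 CPM in DMSO libraries. The groups did not overlap. The change was 0.34 ± 0.17 (limma adjusted p = 0.376), or 0.22 against DMSO 3 alone.

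E2F1 (chr20:33684569-33688074) held 79.5, 91.8 and 80.2 CPM in WM-1119 libraries and 44.5, 91.6 and 76.9 CPM in DMSO libraries. DMSO 1 stood far below the other 5 libraries, which overlapped. The change was 0.30 ± 0.19 (limma adjusted p = 0.422). It rested on DMSO 1, since without that library it was -0.005. In all, the groups did not overlap at 4 of 39 regions, each higher in WM-1119 cells: MCM6, CDC45, MKI67 and E2F2. That is 10.3%, against 17.8% of gene-end regions in range and 3.76% of all regions. None was lower in WM-1119 cells without overlap, against 1.84% in range and 13.2% of all regions.

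**Figure D2:**
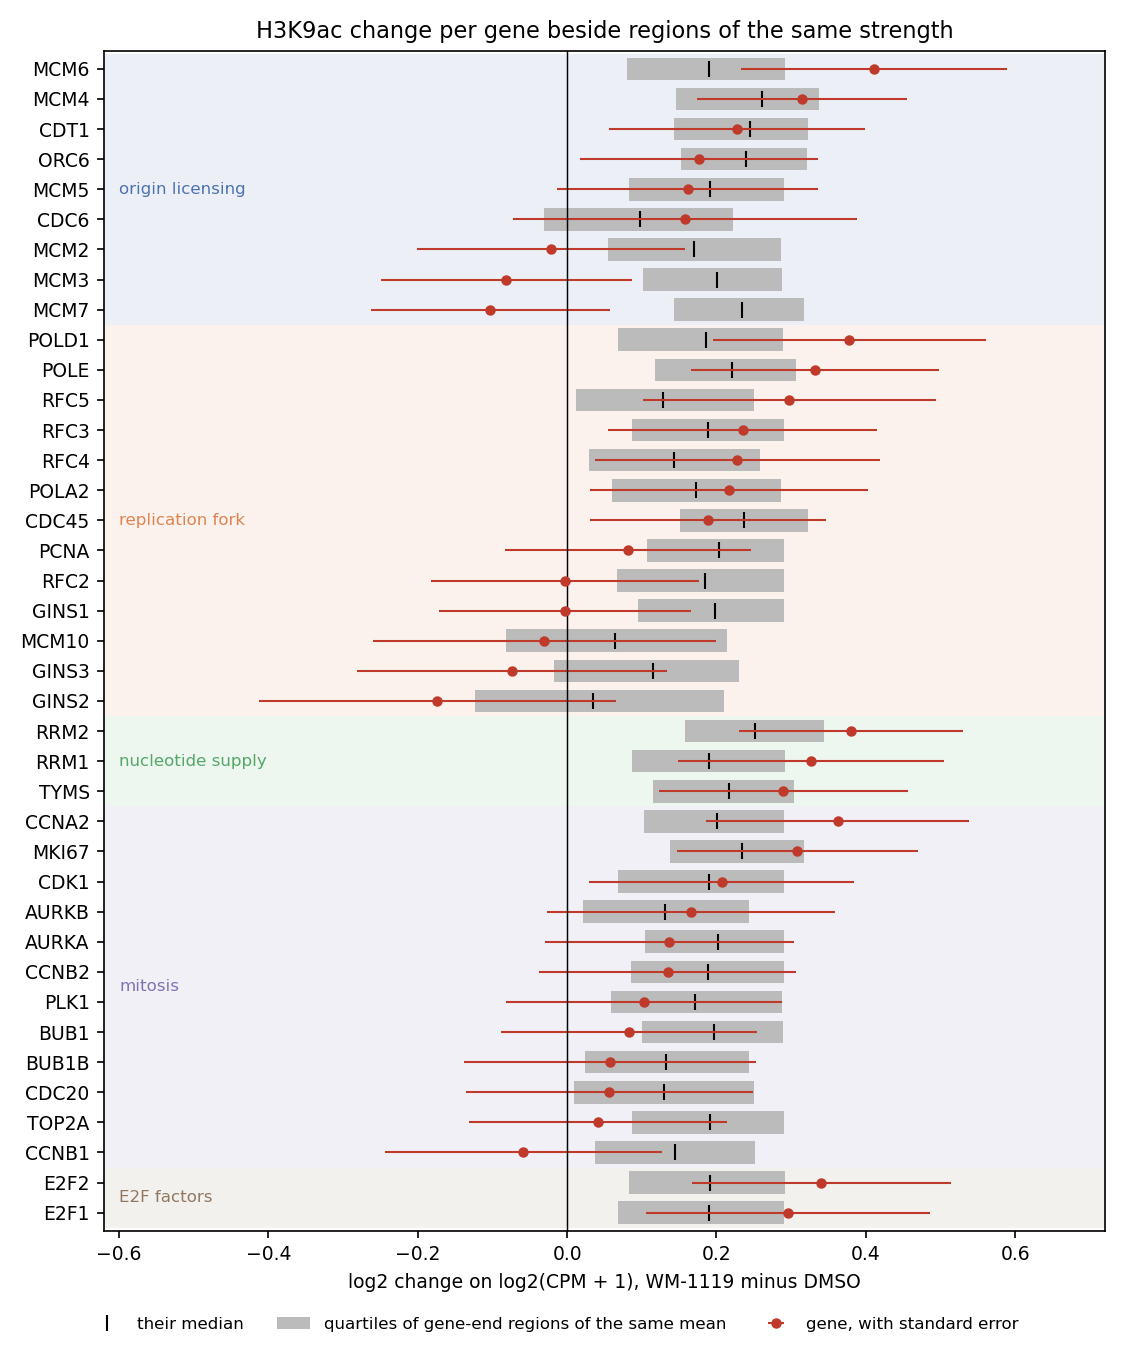
Log2 change of H3K9ac, WM-1119 minus DMSO, for each of 39 genes by role (red points, with the standard error), beside the quartiles (grey bars) and median (black ticks) of other gene-end regions whose mean lies within 10% of that gene's. The points spread to both sides of the ticks, from MCM6 at 0.41 to GINS2 at -0.17.

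Set beside other gene-end regions of the same mean CPM, the replication and mitosis genes lay on both sides. Each gene was compared with the regions of other coding genes whose mean lay within 10% of its own, 26 regions for MCM4 and up to 1019 for POLA2. The change was above the median of those regions for 18 genes and below it for 21, and the median difference was -0.03. For 19 genes it lay within their quartiles, for 11 below the lower and for 9 above the upper. The 9 above were MCM6, POLD1, POLE, RFC5, RRM2, RRM1, CCNA2, E2F1 and E2F2. By role the median difference was -0.03 for licensing, -0.05 for fork, 0.13 for nucleotide supply, -0.07 for mitosis and 0.13 for the E2F genes.

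The ratio of each gene's CPM to the median of its comparison regions was also taken library by library. Matching on the mean over the 6 libraries fixes an average ratio near 1, so only differences between libraries are informative. The median ratio over the 39 genes was 0.959, 1.01 and 1.04 in WM-1119 replicates 1, 2 and 3, and 0.960, 1.03 and 1.01 in DMSO replicates 1, 2 and 3. The ranges of the groups overlapped, and the lowest medians were those of WM-1119 replicate 1 and DMSO replicate 1. The number of genes above 1 was 8, 21 and 26 in the WM-1119 libraries and 18, 26 and 22 in the DMSO libraries. Single ratios ran from 0.556, for CDC6 in DMSO 1, to 1.32, for MCM7 in DMSO 1. Mitosis genes were above 1 in 2 of 12 cases in WM-1119 replicates 1 and 2 each and in 11 of 12 in WM-1119 replicate 3, a difference within 1 group. DMSO 1 was the lowest library for 24 of 39 genes, and also for 52.9% of the gene-end regions in range.

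**Figure D3:**
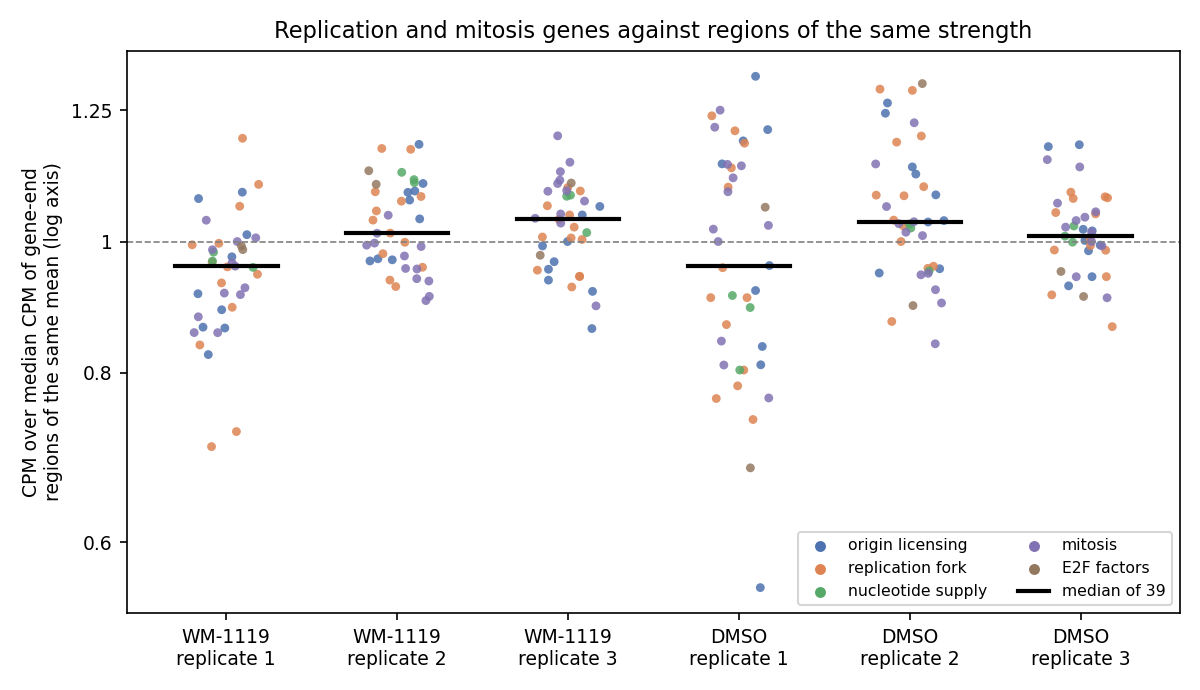
Ratio of each gene's CPM to the median CPM of other gene-end regions of the same mean (log axis), in the 3 WM-1119 and then the 3 DMSO libraries; points are the 39 genes, coloured by role, and black bars their medians. The medians lie between 0.959 and 1.04, and the points are most spread in DMSO replicate 1.

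The spread between libraries was close to that of comparable regions. The median SD of log2 values within a group was 0.12 in WM-1119 and 0.24 in DMSO libraries for the 39 regions, against 0.11 and 0.23 for gene-end regions in range. By promoter element, the median change was 0.21 for the 17 genes with an E2F word and 0.17 for the 19 without one. It was 0.12 for the 8 with a CHR word and 0.18 for the 28 without. The counts above 0 ran the other way. They were 11 of 17 with an E2F word and 16 of 19 without, and 8 of 8 with a CHR word and 19 of 28 without. CDT1 and PCNA, which have an E2F word, entered with chosen regions that do not cover a listed start.

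Per length, without correction for DNA copy number, MCM4 had the densest region, at 96.0 CPM per kb over the 6 libraries. GINS2 had the least dense, at 14.1. The median of the 39 was 32.8 CPM per kb, against 30.7 for gene-end regions in range (quartiles 24.5 and 39.3). By role the median level was 37.2 CPM per kb for licensing, 33.0 for fork, 45.2 for nucleotide supply, 29.7 for mitosis and 25.3 for E2F genes. The median width was 2459 bp, from 993 bp at CDC6 to 5587 bp at RRM2.

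**Figure D4:**
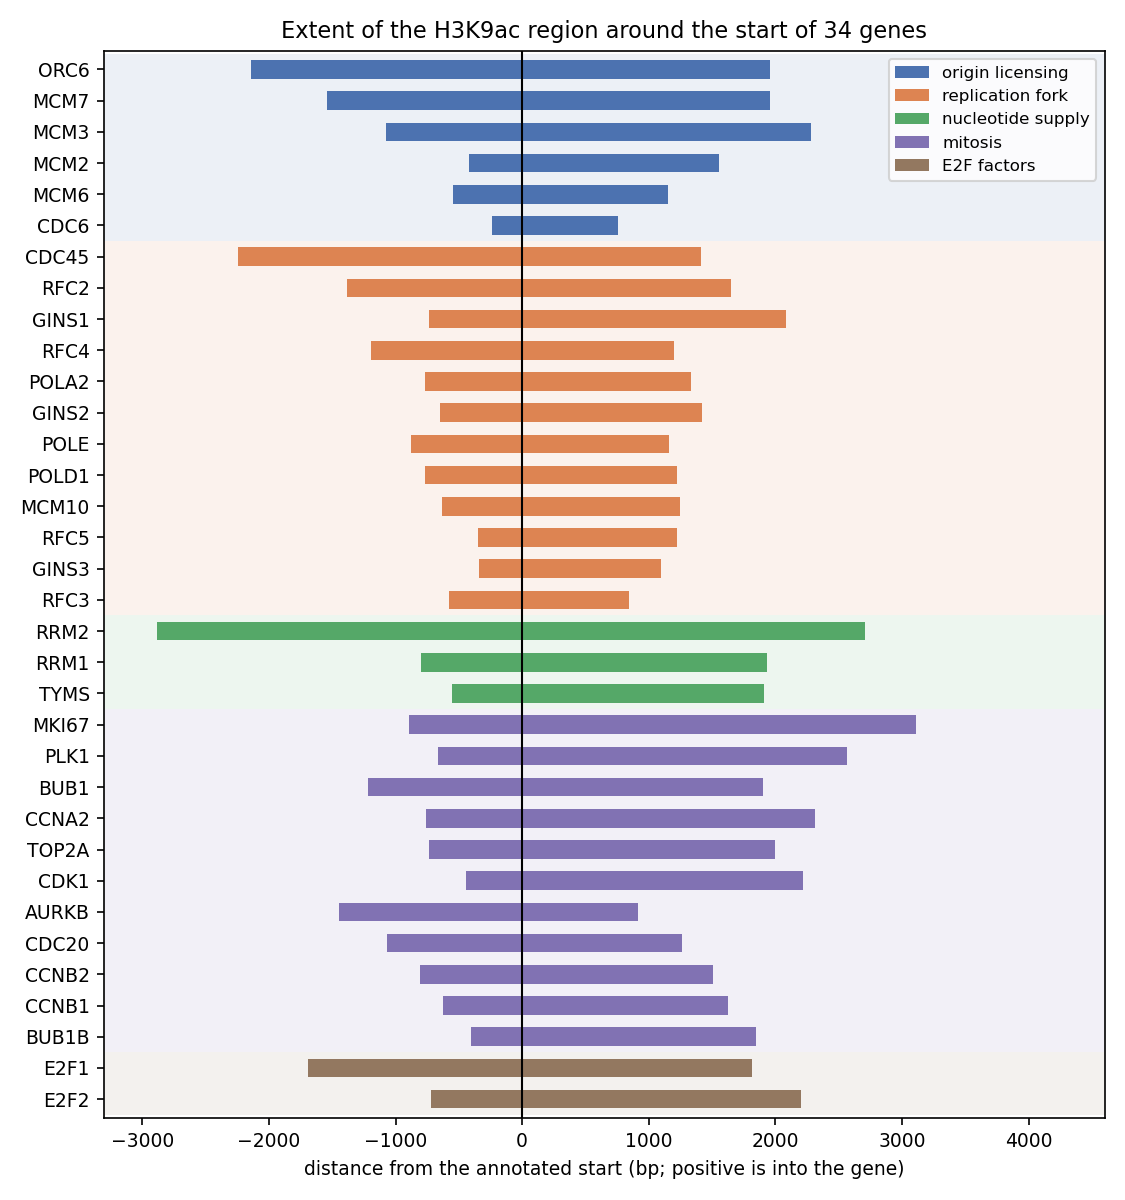
Extent of the H3K9ac region around the annotated start of 34 genes, by role and in falling order of width within a role; bars run from the bases before the start (left, negative) to the bases into the gene (right, positive). Most bars reach farther to the right, and RRM2 has the widest.

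The regions reached mainly into the gene. Of 36 genes with a region and a listed start, 34 had the start inside the region. These 34 regions ran a median of 764 bp before the start and 1636 bp into the gene, against 929 and 1421 bp for 6692 other coding genes with a region of similar strength over the start. The part inside the gene was the longer for 30 of 34 genes (88.2%), against 74.3%. The exceptions were ORC6, CDC45, RRM2 and AURKB. Where several starts were listed, the first one inside the region was used. CDC45 has 3 listed starts, and RRM2 and AURKB have 2 each. Measured from their annotated gene start, none of these genes was an exception. RRM2 reached 2882 bp before its start, the most of the 34, and MKI67 3112 bp into its gene. Some of the 39 regions serve neighbours too: 13 had an end of another coding gene within 1 kb and 6 held another gene's start.

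CDT1 and PCNA were the genes whose chosen region did not cover a listed start, and for both the chosen region is also that of a neighbouring gene. CDT1 licenses origins and is destroyed in S phase. Its chosen region (chr16:88809341-88812833) lies 83 bp beyond its annotated end, and APRT and GALNS have the same region. The region over CDT1's own start (chr16:88801742-88806156) held 127, 157 and 166 CPM in WM-1119 libraries and 91.8, 136 and 171 CPM in DMSO libraries, which overlapped. Its change was 0.21 ± 0.17 (limma adjusted p = 0.486), against 0.23 at the chosen region.

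PCNA, the sliding clamp, was represented by a region 831 bp beyond its annotated end (chr20:5112039-5114122), which is also that of TMEM230. The strongest region over a PCNA start (chr20:5116775-5120825) held 174, 176 and 183 CPM in WM-1119 libraries and 136, 144 and 186 CPM in DMSO libraries. DMSO 3 was the highest library there and DMSO 1 and 2 the lowest. The change was 0.20 ± 0.15 (limma adjusted p = 0.466), against 0.08 at the chosen region. A weaker region (chr20:5126083-5128575) covered the listed start at PCNA's annotated gene start. It held 89.4, 71.0 and 69.7 CPM in WM-1119 libraries and 70.9, 60.8 and 69.4 CPM in DMSO libraries, which overlapped. Its change was 0.19 (limma adjusted p = 0.547).

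ORC1, the largest subunit of the origin recognition complex, had no region within 1 kb of its annotated ends, but a region covered a start listed inside the gene (chr1:52402854-52405672). It held 99.7, 102 and 103 CPM in WM-1119 libraries and 77.9, 97.0 and 92.2 CPM in DMSO libraries, without overlap. The change was 0.19 ± 0.17 (limma adjusted p = 0.510). With the region over the start in place of the gene-end region, 37 genes had a value, 0 passed, 28 were above 0 and the median was 0.19.

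The 40 genes also held 81 further regions, inside the genes or within 1 kb of their ends, of which 72 reached the mean of 1 CPM needed for the test and 0 passed it. Of the 72, 9 had a mean of at least 10 CPM, from 12.5 to 166.6 CPM, and these lay in 6 genes. The change was above 0 for 5 of the 9. These were the start regions of CDT1, PCNA and ORC1 given above, the weaker PCNA start region (0.19) and a region near E2F1 (0.11). It was below 0 for 3 regions in or near POLD1 (-0.38, -0.60 and -0.94) and 1 RFC3 region (-0.40). The E2F1 region and the POLD1 region at -0.94 lie wholly beyond the annotated end of the gene, so they may belong to a neighbour. The other 63 regions were below 10 CPM, and 62 of them had a change below 0, with a median of -0.72. Over all 30440 regions of 1 to 10 CPM the median was -0.65, and 93.7% were below 0.

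None of the other cell cycle genes passed the test either. Of 147 listed by function, 143 had a tested region, and 0 passed the adjusted threshold in either direction. The change was above 0 for 128 (89.5%) and below 0 for 15, with a median of 0.22, against 83.2% above 0 and a median of 0.18 for the gene-end regions in the range given above. Against DMSO 3 alone the median of the 143 was 0.02. By list, the changes above 0 were 13 of 15 licensing and firing factors (median 0.13), 21 of 23 fork proteins (0.16) and 17 of 18 cohesin and condensin genes (0.30). They were 25 of 29 kinetochore and checkpoint genes (0.26), 37 of 40 mitotic kinase, spindle and anaphase-promoting complex genes (0.22) and 15 of 18 E2F, RB and DREAM factors (0.20). Without DMSO 3, 50 of the 143 were called, all higher, where 5.28% of all regions and 27.2% of the gene-end regions in range were called higher.

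Of these 143, the smallest p in the upward direction belonged to RB1, the retinoblastoma protein that holds E2F factors in check. RB1 had 248, 235 and 230.0 CPM in WM-1119 libraries and 153, 169 and 216 CPM in DMSO libraries. The groups did not overlap, and the change was 0.42 ± 0.15 (limma adjusted p = 0.329), or 0.14 against DMSO 3 alone. LIN9, of the MuvB core, followed with 0.44 ± 0.17 (limma adjusted p = 0.339) and STAG2, a cohesin subunit, with 0.42 ± 0.16 (limma adjusted p = 0.339). Against DMSO 3 alone LIN9 was at 0.05 and STAG2 at 0.18, and STAG2 was at 0.26 without DMSO 1.

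In the downward direction the smallest p belonged to E2F5, an E2F factor of the repressive class. E2F5 had 89.2, 80.3 and 79.5 CPM in WM-1119 libraries and 95.9, 110.1 and 128 CPM in DMSO libraries. All WM-1119 libraries were below all DMSO libraries, and the change was -0.41 ± 0.17 (limma adjusted p = 0.344), though 0.36 with median centring and 0.01 with DESeq2. POLA1, the catalytic subunit of polymerase alpha, had -0.24 ± 0.23 (limma adjusted p = 0.546), also without overlap, and TRAIP, a ubiquitin ligase of the replisome, -0.18 ± 0.26 (limma adjusted p = 0.671); both turned above 0 with median centring, edgeR and DESeq2. Against DMSO 3 alone E2F5 was at -0.62, POLA1 at -0.22 and TRAIP at 0.24, and TRAIP was at -0.08 without DMSO 1 and -0.07 without DMSO 2.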

How the data were processed

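H3K9ac ChIP-seq of MOLM-13 cells was compared between 3 WM-1119 and 3 DMSO libraries, of 12 samples in all; 6 input libraries were not analysed here. Per the submitters' processing notes the build is hg38, and the tools, whose versions and roles are not given, include Bowtie2, MACS2, SAMtools and bedtools. The authors call the deposited values TPM, but they are CPM: each library sums to 1000000 over 47648 regions, and values are whole reads times 1 step per library, whatever the width. Among values worth at most 100 reads, 100% were whole to a tolerance of 0.02 reads, but the step of WM-1119 replicate 2 is so near a round value that it was kept out of count tests. Starts were taken as counted from 0, and 1 was added. No library was a copy of another.

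limma 3.58.1 in R 4.3.3 (lmFit, then trended robust eBayes) modelled log2(CPM + 1), a scale that understates changes of low regions, in 44763 regions whose mean was 1 CPM or more. Treatment was the only term, p-values were adjusted by Benjamini-Hochberg over all regions, and the threshold was 0.05. The script was tested on simulated data. edgeR 4.0.16 (quasi-likelihood, TMM) and DESeq2 1.42.0 ran on reads recovered from 5 libraries as alternatives. Genes and starts came from RefSeq (GRCh38.p14). Members and gene lists were chosen with earlier results of these data known. Values per library are given, in each role, for the strongest gene and those with the highest and lowest change, and for a few genes chosen after their values were seen; of other cell cycle genes, the 3 with the smallest p per direction are named. Other steps used matplotlib 3.10.9, scipy 1.17.1, numpy 2.4.6 and pandas 2.3.3 under Python 3.11.15. Intervals and depth limits cover counting error only.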

Additional observations from a re-analysis of the deposited data

How the results depend on the processing

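Calls over all regions (27) were 23 with no filter, 21 and 19 with pseudocounts of 0.1 and 5, 2 with a minimum mean of 10 CPM, 2 with median centring, 1 with quantile normalization, 76 with a background subtracted, 34995 with array weights, and 0 with limma without trend and robust, with edgeR, with DESeq2 and without DMSO replicates 1 and 2. At an unadjusted p under 0.05 those last 4 gave 33, 357, 103 and 1338 higher and 4903, 1729, 678 and 728 lower regions. Leaving out 1 library gave 0 to 19600 calls: 19600 without DMSO 3, 0 without DMSO 2, 6 without DMSO 1, and 33, 4 and 5 without WM-1119 replicates 1, 2 and 3. Calls among the 39 genes were 24 with array weights (22 higher, 2 lower, against 14.2% and 64% of all regions), 0 to 12 leaving out 1 library, the 12 without DMSO 3, and 0 under every other setting run. Calls among the 143 other genes were 94 with array weights (90 higher, 4 lower, against 59.4% higher among gene-end regions in range) and 0 to 50 leaving out 1 library, and otherwise 0.

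The median change of the 39 genes was 0.94 with median centring, 0.49 with edgeR and 0.56 with DESeq2. All gene-end regions had medians of 0.89, 0.49 and 0.56 under these settings, and 0.12 in the main fit. Leaving out 1 library, the median of the 39 genes ranged from 0.04 to 0.29. It was -0.03 without DMSO 1 and 2 (0.04 for all gene-end regions) and 0.02 with quantile normalization (0.08 for all gene-end regions). The median of all regions moved with the scaling: -0.47 as reported, 0.30 with median centring, -0.13 with edgeR, -0.07 with DESeq2 and 0.01 with quantile normalization. The difference from gene-end regions of the same mean was -0.02 with a window of 20%, -0.03 with regions over 1 kb wide, and -0.04 matched on 4 libraries, without DMSO 1 and 2.

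Signs of single genes turned as follows. With DESeq2, MCM7 was 0.32, GINS2 0.20, CCNB1 0.41, E2F5 0.011, POLA1 0.25 and TRAIP 0.28. With edgeR, MCM7 was 0.26, GINS2 0.11, CCNB1 0.35, POLA1 0.16 and TRAIP 0.19. With median centring, MCM7 was 0.67, GINS2 0.60, CCNB1 0.71, E2F5 0.36, POLA1 0.53 and TRAIP 0.59. With array weights, MCM7 was 3.1e-05, GINS2 0.0013, CCNB1 0.11 and E2F1 -0.087. CDC45 was -0.025 with quantile normalization. Without DMSO 1 and 2, POLD1 was -0.0020, GINS2 0.0040 and TRAIP 0.24. Leaving out 1 library, CCNB1 ranged from -0.16 to 0.0039 and E2F1 from -0.0048 to 0.51. For 19 named genes, 309 of 361 alternative values kept direction and side of the threshold, 25 passed it, and 27 turned in sign. The causes were not tested.

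Replicate numbers are shared between groups, and the libraries of a number deviated together with r of 0.22, 0.05 and 0.33. Libraries of unlike numbers had r from -0.2737 to 0.0554, the latter for WM-1119 replicate 1 with DMSO 2. The labels do not say whether libraries of a number were paired. A replicate block in limma gave 496 calls over all regions (112 higher, 384 lower) and 0 of 39 genes, whose smallest adjusted p was 0.0906. At an unadjusted p under 0.05 the block gave 10 of 39 genes higher and 0 lower. Of all 44763 regions, 1973 were higher and 7399 lower by that rule. The share of gene-end regions in range was not taken under the block. In the main limma fit 12.9% of those regions were higher at an unadjusted p under 0.05, against 2.58% of all regions. The region over the start, chosen after seeing the data, is the alternative reported for CDT1, PCNA and ORC1. Depth limits the weak regions most, since 1 read in DMSO 1 is worth 1.39 CPM and the 39 genes had 15 to 196 reads there.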
